A study of Homo sapiens with 15 samples.

Results

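The genes described here encode the cytosolic translation initiation and elongation factors and the proteins that act directly on them. They were chosen by name from the count table: protein-coding genes whose symbols begin with EIF1 to EIF6, EEF1 or EEF2, without pseudogenes, without EIF2A, the eIF2 kinases and EIF2S1, which encodes the phosphorylated subunit of eIF2, and without EEF1E1. The rule gave 63 of the 60670 genes in the table, and 59 of these had enough reads to be tested.

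The libraries came from HT-1080, a human fibrosarcoma cell line, in 5 groups of 3 libraries that the labels call biological replicates. The first group was cycling cells in the vehicle DMSO, labelled 6 h. The other 4 groups were senescent cells, which had expressed a dominant negative mutant of the telomere protein TRF2 for 6 days to uncap telomeres, before treatment. Of these, 1 group was given DMSO and 1 group GNF-7 at 1 uM for 6 h, and the last pair of groups the same for 24 h. The series title calls GNF-7 an inhibitor of kinases and gives GCN2, which phosphorylates eIF2, as a protein that it activates. Cycling cells with GNF-7 and cycling cells at 24 h were not analysed here, so an effect of GNF-7 could be compared with vehicle only in senescent cells. All groups are 1 cell line grown in tet-free serum at low oxygen (5%), and the labels do not say whether the mutant came from 1 clone.

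Protein synthesis starts when eIF2, loaded with GTP and the initiator tRNA, joins eIF1, eIF1A, eIF3 and eIF5 on the small ribosomal subunit. The cap-binding complex eIF4F, made of eIF4E, the scaffold eIF4G and the helicase eIF4A, brings in the mRNA. The exchange factor eIF2B reloads eIF2 with GTP, and it is this step that phosphorylated eIF2 blocks in the integrated stress response, in which the transcription factor ATF4 is made. The 4E-BP proteins bind eIF4E and keep it from eIF4G when mTORC1 is inactive, and elongation is then carried by eEF1A, which delivers tRNAs, eEF2, which moves the ribosome, and eIF5A, which carries the modified amino acid hypusine. RNA levels are measured here. Protein, phosphorylation and the rate of translation were not analysed here.

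Library totals ranged from 25991007 to 32323393 counts. The members took 2.12 to 2.16% of the counts in cycling libraries and 1.70 to 1.87% in the senescent groups. Mitochondrially encoded genes moved with the groups as well, from 3.75 to 5.01% of counts in cycling cells to 11.2 to 12.4% in senescent vehicle and 13.2 to 15.3% in GNF-7 cells at 6 h, and to 15.1 to 18.7% in vehicle and 22.6 to 24.1% in GNF-7 cells at 24 h. Of the counts outside the mitochondrial genome, the members took 2.24 to 2.25% in cycling cells, 2.04 to 2.09% in senescent vehicle cells at 6 h and 2.25 to 2.32% in GNF-7 cells at 24 h. The mesenchymal markers VIM, FN1, CD44, LGALS1 and MME were between 375 and 4457 CPM on average in cycling cells, where S100A4 and TAGLN were at 2.75 and 1.40. The epithelial, endothelial, leukocyte and hepatocyte markers all had group means under 1 CPM except the leukocyte list's CD68, a lysosomal protein gene, whose group means lay between 2.24 and 4.35 CPM.

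Levels are given as CPM, the counts of a gene relative to all counts of a library, scaled to the effective library size, and a log2 fold change of 1 is a doubling. A gene was called when the edgeR quasi-likelihood test, adjusted over all 18563 genes tested, gave a p under 0.05. Errors are the SD over the 3 libraries of a group. Whether replicates came from separate cultures is known only from the labels' word for them.

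Senescent cells held lower levels of most translation factors than cycling cells. Of 59 members, 48 were called lower and 3 higher, beside 70% of all genes called, 34.4% lower and 35.6% higher. The members' median log2 fold change was -0.48, and that of all genes was 0.06. Since well-expressed genes are called more often, the same was read among the 11234 genes with a mean of at least 5 CPM: 50.9% of these were called lower, at a median of -0.15, and 47 of the 55 members among them were. CPM gives a share of a library's counts, so a lower level need not mean fewer copies per cell. The amount of RNA per cell was not analysed here. In bulk libraries, fewer cells with an RNA and less of it per cell also cannot be told apart. In 50 of the 59 members the 3 senescent and the 3 cycling libraries did not overlap, beside 71.5% of all genes tested. With mitochondrial genes left out of the scaling, 48 members were lower and 3 higher. A fit of only the 11234 genes with a mean of at least 5 CPM changed both the filter and the scaling. It shifted the median of these genes by 0.15 on the log2 scale, and of the 55 members it tested 40 were lower and 6 higher. EEF1D, EEF2, EEF2K, EIF2B1, EIF3G, EIF3K and EIF6 lost their calls in it, and EIF2B4, EIF4A2 and EIF4G3 were called higher. Of the 3 rises, those of EIF4A1 and EIF4E3 rest on single libraries. Only that of EEF1A2 was left without cycling replicate 1, and likewise without senescent vehicle 6 h replicate 1.

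GNF-7 moved individual factors in both directions. At 6 h, 11 members were called higher and 21 lower than in vehicle, beside 39.3% of all genes called, 17.9% higher and 21.4% lower. At 24 h there were 13 higher and 27 lower, beside 58.9% of all genes, 29.3% higher and 29.7% lower. Among the 11234 well-expressed genes 53.5% were called at 6 h and 72.7% at 24 h, and 32 and 39 of 55 members were. The share of members called was thus near that of the well-expressed genes, which were not matched to the members in abundance. What follows is therefore about which factors moved. With mitochondrial genes left out of the scaling there were 12 higher and 19 lower at 6 h, and 12 higher and 29 lower at 24 h. The fit of only the 11234 well-expressed genes, with 55 members tested, gave 16 higher and 15 lower at 6 h, and 21 higher and 24 lower at 24 h. In it EIF2D, EIF3F, EIF3G, EIF3H and EIF3M gained a call as higher at 6 h, and EEF1A1, EEF1A2, EEF1B2, EIF3G, EIF3H, EIF4B, EIF4G3 and EIF5A2 at 24 h. Without a filter on low counts it was 6 higher and 21 lower at 6 h, and without GNF-7 6 h replicate 2 it was 11 higher and 13 lower.

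**Figure D1:**
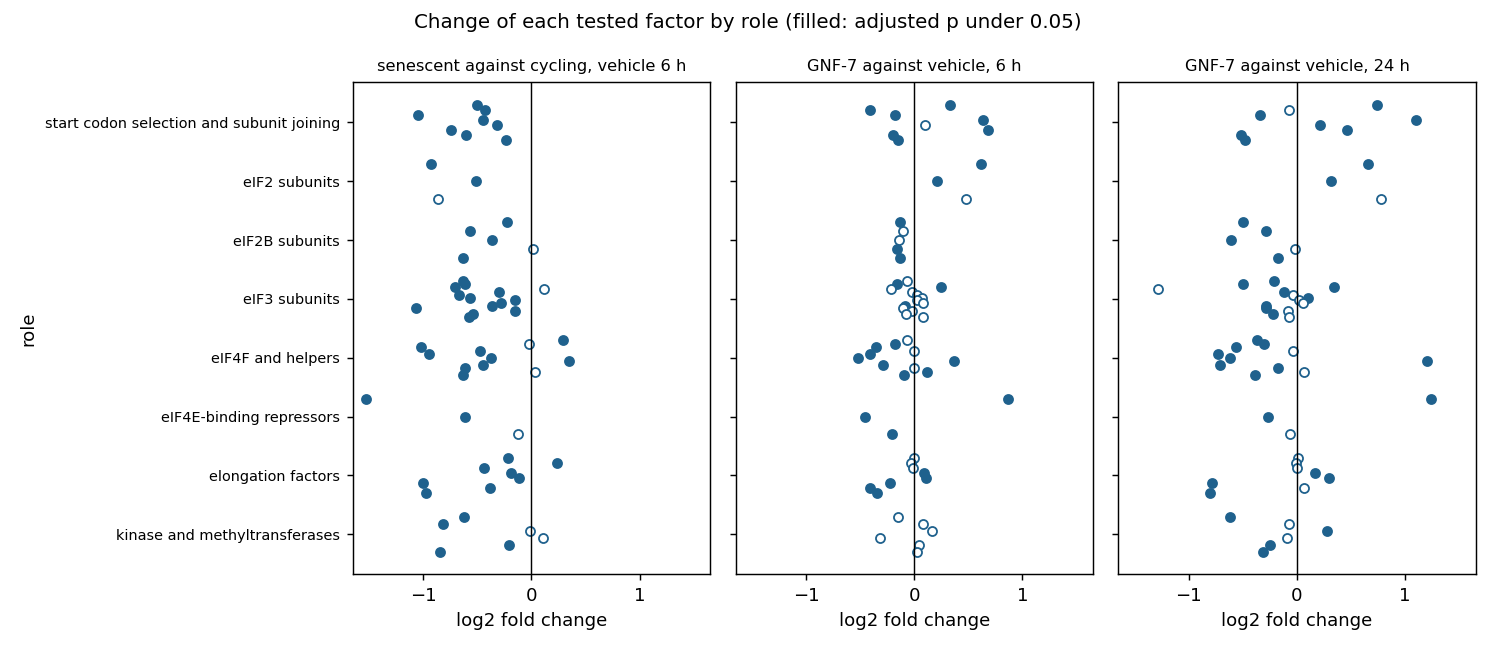
Log2 fold changes (x axis) of the tested factors, in rows by role, for senescent against cycling cells and for GNF-7 against vehicle at 6 h and 24 h. Each point is 1 gene, filled where the edgeR adjusted p was under 0.05, and EIF1AY is counted in the text but not drawn. Nearly all points lie left of 0 in senescence, and under GNF-7 the eIF2 subunits lie to the right while the eIF2B subunits lie to the left or near 0.

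EIF4EBP1, which encodes 4E-BP1, the repressor that binds eIF4E when mTORC1 is inactive, had the largest fall in senescence of the tested members and the largest called rise with GNF-7 at each time (ENSG00000187840, chromosome 8, 38030341 to 38060365, plus strand). Cycling libraries held 180.3, 179 and 184 CPM, against 65.2, 63.5 and 59.9 in senescent vehicle cells at 6 h (log2 fold change -1.52, SE 0.043, edgeR adjusted p 1.84e-39). Its level in senescent cells was thus well below the cycling range. With GNF-7 the 6 h libraries rose to 119, 109 and 117 CPM (log2 fold change 0.87, SE 0.044, edgeR adjusted p 9.63e-26). At 24 h they stood at 179.9, 169.6 and 183 CPM beside 75.2, 73.0 and 77.5 in vehicle (log2 fold change 1.24, SE 0.043, edgeR adjusted p 1.37e-34). The GNF-7 libraries did not overlap vehicle at either time, and at 24 h they overlapped the cycling libraries. The rise was larger at 24 h than at 6 h by 0.37 on the log2 scale (adjusted p 1.62e-06).

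With GNF-7 the other genes of eIF4E-binding proteins were lower or not called. EIF4EBP2, the gene of the second 4E-BP, fell from 117 ± 0.494 CPM in cycling to 76.4 ± 2.24 in senescent vehicle cells (log2 fold change -0.61, SE 0.044, edgeR adjusted p 2.45e-19). Under GNF-7 it was at 56.2, 53.4 and 57.9 CPM at 6 h, below the 75.1, 75.2 and 79.0 of vehicle (log2 fold change -0.45, SE 0.046, edgeR adjusted p 1.52e-12). It was also lower at 24 h, at 56.5 ± 2.41 against 67.8 ± 0.553 CPM (log2 fold change -0.26, adjusted p 1.72e-06). EIF4ENIF1, whose protein 4E-T carries eIF4E into the nucleus and into RNA granules, was called with GNF-7 only at 6 h, with a log2 fold change of -0.20 (adjusted p 0.0263), and not in the fit of only the well-expressed genes (-0.15, adjusted p 0.0905). EIF4EBP3 had 0 to 6 counts in a library and was not tested, and 73.4% of its exonic bases are shared with the readthrough gene ANKHD1-EIF4EBP3 on the same strand.

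EIF4E itself, the cap-binding subunit, was lower in senescence and lower still with GNF-7 (ENSG00000151247, chromosome 4, 98871684 to 98930637, minus strand). It was at 72.8, 76.5 and 75.5 CPM in cycling cells and at 37.3, 39.5 and 40.1 in senescent vehicle cells (log2 fold change -0.94, SE 0.057, edgeR adjusted p 6.91e-23). GNF-7 libraries held 29.9, 30.6 and 27.8 CPM at 6 h (log2 fold change -0.41, adjusted p 8.8e-08). At 24 h, vehicle libraries held 36.2, 37.8 and 35.1 and GNF-7 libraries 22.4, 19.7 and 23.7 CPM (log2 fold change -0.73, SE 0.063, edgeR adjusted p 7.96e-16). The groups did not overlap in any of these comparisons, and EIF4E in GNF-7 cells at 24 h was at 0.292 of its cycling level. EIF4E2, which encodes the repressive cap-binding homologue 4EHP, was lower with GNF-7 at 6 h, at 59.7, 53.9 and 61.3 against 87.7, 83.6 and 80.0 CPM in vehicle (-0.52), and at 24 h, at 58.1, 51.4 and 54.6 against 85.4, 85.6 and 81.7 (-0.62). It had the largest fall of any called member at 6 h.

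EIF4E3, another eIF4E homologue, which was expressed at a low level here, rose instead. Cycling libraries held 3.78, 4.64 and 2.38 CPM and senescent vehicle libraries 4.43, 5.08 and 4.12, which overlap. In GNF-7 cells it was at 5.25, 6.17 and 6.20 CPM at 6 h and at 14.1, 14.5 and 12.2 at 24 h, beside 6.09, 5.88 and 5.72 in vehicle at 24 h (log2 fold change 1.20, SE 0.14, edgeR adjusted p 1.4e-11). The effect was larger at 24 h than at 6 h by 0.84 (adjusted p 0.000701). Its calls in senescence (log2 fold change 0.35, edgeR adjusted p 0.0487) and at 6 h (0.37, adjusted p 0.0428) were near the threshold. The first fell to 0.10 (adjusted p 0.592) without cycling replicate 3 and to 0.25 (adjusted p 0.21) without senescent vehicle 6 h replicate 2, and was lost in 12 of 15 fits that left out 1 library. The second was lost in 4 of 15, with adjusted p from 0.102 to 0.168. The first was also lost with DESeq2 (0.35, adjusted p 0.0506), and the second with limma voom (0.36, adjusted p 0.0594) and without a filter (0.35, adjusted p 0.0633). Libraries held only 73 to 448 counts of EIF4E3.

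Within each library, the ratio of EIF4EBP1 to EIF4E counts was computed, a choice made after their values were seen. It was 2.48, 2.34 and 2.43 in cycling cells and 1.75, 1.61 and 1.49 in senescent vehicle cells at 6 h. With GNF-7 it was 3.99, 3.58 and 4.21 at 6 h and 8.05, 8.60 and 7.74 at 24 h, beside 2.08, 1.93 and 2.21 in vehicle at 24 h. The ratio was thus 2.43 times that of vehicle at 6 h and 3.92 times at 24 h, and no GNF-7 library overlapped a vehicle or a cycling one. A two-sided exact permutation test of 3 against 3 libraries gave p = 0.1 in each comparison, the smallest it can give, and 0.115 adjusted over 15 comparisons of such ratios. Of the other repressor, the ratio of EIF4EBP2 to EIF4E was 1.96 ± 0.0558 (SD, n = 3) in vehicle and 1.91 ± 0.170 with GNF-7 at 6 h, which overlap (exact permutation p = 0.6), and 1.87 ± 0.0550 and 2.59 ± 0.143 at 24 h.

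**Figure D2:**
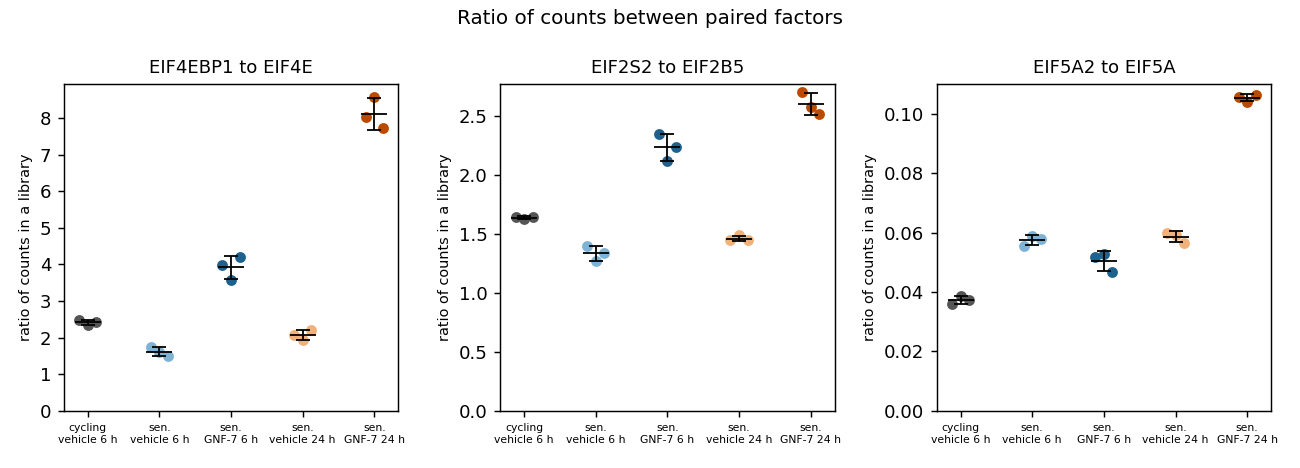
Ratio of the raw counts of 2 genes in each library (y axis, linear, from 0), for EIF4EBP1 to EIF4E, EIF2S2 to EIF2B5 and EIF5A2 to EIF5A. Points are libraries, the bar is the mean and the whiskers the SD of 3 libraries. The ratio of EIF4EBP1 to EIF4E averaged 8.13 in GNF-7 cells at 24 h and 2.07 in vehicle.

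The scaffold and helicase genes grouped here with eIF4F, among them EIF4A3 of another complex, moved with EIF4E only in part. EIF4G1, the main scaffold and the most abundant gene of this group by CPM per kb of exon in cycling cells (ENSG00000114867, chromosome 3, 184314495 to 184335358, plus strand), was at 1731, 1751 and 1742 CPM in cycling and 1305, 1257 and 1282 in senescent vehicle cells (log2 fold change -0.44, SE 0.031, edgeR adjusted p 8.95e-20). GNF-7 cells held 1063, 1039 and 1040 CPM at 6 h (log2 fold change -0.29, adjusted p 8.7e-12). At 24 h there were 1138, 1160 and 1160 CPM in vehicle and 698, 701 and 710.1 with GNF-7 (log2 fold change -0.71, SE 0.032, edgeR adjusted p 4.97e-29). The groups did not overlap, and the effect at 24 h minus that at 6 h was -0.42 (adjusted p 6.39e-12). In vehicle alone EIF4G1 was also lower at 24 h than at 6 h (-0.15, adjusted p 0.000181).

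With GNF-7 the paralogues of EIF4G1 had smaller changes. EIF4G2, which encodes the scaffold DAP5 that lacks the eIF4E-binding site, fell in senescence from 1322, 1386 and 1396 to 880.3, 893 and 903 CPM (-0.62), more than EIF4G1. Its GNF-7 effect was -0.0044 at 6 h (95% interval -0.069 to 0.06, not called) and -0.18 at 24 h (adjusted p 6.35e-06), when its libraries held 759.5, 736 and 728 against 831, 847 and 832 CPM in vehicle. EIF4G3, the second cap-complex scaffold, had no call in senescence (0.031, 95% interval -0.048 to 0.11). It was called higher there by the fit of only the well-expressed genes (0.18, adjusted p 3.72e-05), with library totals (0.16, adjusted p 0.000443) and with only the groups compared (0.0901, adjusted p 0.0218). At 6 h with GNF-7 it was 157, 152 and 152 CPM against 143, 139 and 144 (0.12, adjusted p 0.0139), a call that was lost without GNF-7 6 h replicate 1 (0.10, adjusted p 0.0692) or without senescent vehicle 6 h replicate 2 (0.10, adjusted p 0.0771), and without a filter (0.0991, adjusted p 0.0999). At 24 h it was not called (0.068), but was called higher by the fit of only the well-expressed genes (0.17, adjusted p 0.000129) and with library totals (0.0955, adjusted p 0.0423).

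Of the helicases, EIF4A3, the helicase of the exon junction complex, fell by 1.02 on the log2 scale in senescence, from 133, 133 and 126 to 65.8, 63.1 and 63.8 CPM. It fell by 0.57 more with GNF-7 at 24 h, where libraries held 45.6, 40.2 and 41.6 CPM (adjusted p 1.17e-14). EIF4A2, the second cap-complex helicase, was not called in senescence (-0.024), but was called higher by the fit of only the well-expressed genes (0.13, adjusted p 0.00021) and with library totals (0.11, adjusted p 0.00497). It was lower with GNF-7 at 6 h, at 527, 536 and 527 against 588, 612 and 602 CPM (-0.18), and at 24 h, at 544, 545 and 527 against 681, 650 and 659 (-0.30). EIF4A1 is listed at 9.35 to 15.2 CPM, far below EIF4A2, and 48.6% of its exonic bases are shared with other genes on the same strand, among them SENP3-EIF4A1. How such reads were counted is not given in the sources used here, so its values are uncertain. Its call in senescence (log2 fold change 0.29, edgeR adjusted p 0.00648) was lost without cycling replicate 1 (0.23, adjusted p 0.0564) or senescent vehicle 6 h replicate 1 (0.23, adjusted p 0.0519). The helicase cofactors EIF4B and EIF4H were both lower in senescence (-0.48 and -0.63). With GNF-7 at 24 h EIF4H was lower (-0.39, adjusted p 6.82e-15) and EIF4B was not called (-0.034, 95% interval -0.10 to 0.033). EIF4E1B, the germline eIF4E homologue, had no count in any library.

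**Figure D3:**
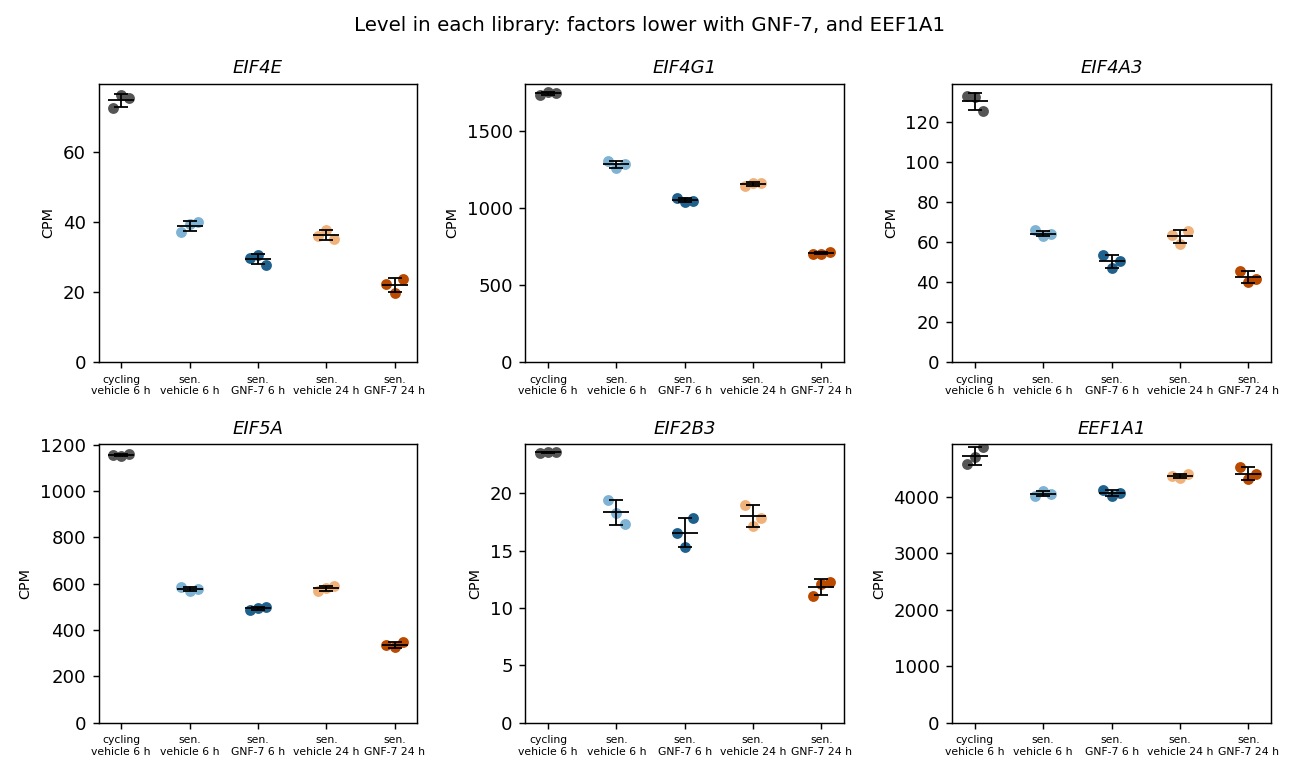
CPM in each library (y axis, linear, from 0) of EIF4E, EIF4G1, EIF4A3, EIF5A and EIF2B3, which were lower with GNF-7 at 24 h, and of EEF1A1, which was not called in the fit of all genes tested. Points are libraries, the bar is the mean and the whiskers the SD of 3 libraries. EIF4G1 fell from about 1153 to 703 CPM at 24 h, and EEF1A1 stayed between 4306 and 4527 CPM in GNF-7 cells.

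EIF4E and EIF4G1 also share a sequence feature that the choice of genes did not use. The window from 250 bases before to 50 bases after each gene's start (RefSeq, GRCh38.p14) was in hand for 50 of the 63 members, as 67 windows. The E-box CACGTG, the letters read by MYC and related factors, was searched on both strands, which are the same for this palindrome. It was in 14 of the 67 windows, 20.9%, and in 7.26% of all 35116 windows of the same length. The 14 include EEF1AKMT4 and its readthrough gene with ECE2, whose matches lie at the same distances from their starts and may be the same promoter. The stretches that hold the matches of the 2 falling genes and of EIF1B, a gene that rose, are shown to compare them, with the E-box in capitals. EIF4E has matches that begin 225 and 72 bases before its start (chr4:98929195-98929363, minus strand), EIF4G1 has them 144 and 67 bases before (chr3:184314457-184314549, plus strand), and EIF1B has 1, 54 bases before (chr3:40309633-40309678, plus strand).
EIF4E: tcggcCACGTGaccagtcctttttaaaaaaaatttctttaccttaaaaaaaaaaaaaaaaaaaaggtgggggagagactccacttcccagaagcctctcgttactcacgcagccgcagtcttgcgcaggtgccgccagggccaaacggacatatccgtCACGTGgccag
EIF4G1: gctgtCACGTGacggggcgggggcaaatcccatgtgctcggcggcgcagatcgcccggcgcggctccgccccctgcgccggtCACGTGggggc
EIF1B: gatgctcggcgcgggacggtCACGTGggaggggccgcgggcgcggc
The match did not separate factors that rose from those that fell. Of the 12 tested members with a match, 2 were called higher and 6 lower with GNF-7 at 24 h (median -0.17), and of 34 with a window but no match, 7 higher and 17 lower (median -0.11). In senescence the counts were 0 higher and 11 lower with a match, and 2 higher and 27 lower without. Of all genes tested, 35.6% were higher and 34.4% lower in senescence, and 29.3% and 29.7% with GNF-7 at 24 h. A match of letters is not evidence that a factor binds there.

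The genes of eIF2 and of its exchange factor eIF2B differed in direction under GNF-7. EIF2S2 and EIF2S3 were higher at both times. The third eIF2 gene tested, the copy EIF2S3B with 2 to 20 counts in a library, was not called. EIF2S1, the gene of the phosphorylated subunit, was outside the choice of genes. Of 5 eIF2B genes 3 were lower at 6 h, 4 at 24 h and none higher. Of all genes tested, 17.9% were higher and 21.4% lower at 6 h, and 29.3% and 29.7% at 24 h. EIF2S2 encodes the beta subunit of eIF2 (ENSG00000125977, chromosome 20, 34088298 to 34112332, minus strand). It was at 219.7, 230.5 and 227 CPM in cycling cells and 118, 118 and 121 in senescent vehicle cells (log2 fold change -0.92, SE 0.042, edgeR adjusted p 3.92e-29). GNF-7 libraries held 191, 173 and 184 CPM at 6 h (log2 fold change 0.62, SE 0.042, edgeR adjusted p 9.63e-20). At 24 h they held 201, 179.9 and 183 beside 119.8, 123 and 114 CPM in vehicle (log2 fold change 0.66, SE 0.042, edgeR adjusted p 1.45e-21). No GNF-7 library overlapped a vehicle library, and the effects at the 2 times differed by 0.041 (95% interval -0.074 to 0.16), which was not called.

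EIF2S3, the gene of the gamma subunit that binds GTP and the initiator tRNA, showed the same order at a smaller size. Cycling libraries were at 342, 363 and 359 CPM and senescent vehicle libraries at 247, 245 and 253 (-0.52, adjusted p 1.16e-19). With GNF-7 they were at 294, 290.3 and 279 CPM at 6 h (0.21, adjusted p 2.08e-06) and at 315, 299 and 313 at 24 h (0.32, adjusted p 3.21e-11), when vehicle held 258, 238 and 248. The effects at 24 h and 6 h differed by 0.10 with no call, but with one in the fit of only the well-expressed genes (0.15, adjusted p 0.0095). The near-identical EIF2S3B had 2 to 20 counts in a library and no call, and reads could be split between both genes.

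The 5 eIF2B subunit genes were lower or not called. In senescence 4 of 5 were lower, beside 34.4% of all genes tested. The log2 fold changes of the 4 were -0.23 for EIF2B1 (alpha), -0.57 for EIF2B2 (beta), -0.36 for EIF2B3 (gamma) and -0.63 for the catalytic EIF2B5 (epsilon). EIF2B4 (delta) was at 38.8, 39.8 and 39.3 CPM in cycling and 36.7, 40.2 and 42.0 in senescent vehicle cells, with no call. It was called higher by the fit of only the well-expressed genes (0.16, adjusted p 0.0118) and with library totals (0.14, adjusted p 0.0284), and EIF2B1 lost its call in the former (-0.0771, adjusted p 0.0744). With GNF-7 at 24 h, 4 of 5 were lower again and none higher, beside 29.7% lower and 29.3% higher of all genes. EIF2B3 libraries then held 11.1, 12.1 and 12.3 CPM against 19.0, 17.2 and 17.9 (log2 fold change -0.61, SE 0.084, edgeR adjusted p 5.45e-09). EIF2B1 was at 71.7, 69.1 and 72.5 against 106, 97.7 and 98.6 CPM (-0.50), EIF2B2 at 40.5, 38.9 and 40.1 against 50.1, 48.0 and 47.7 CPM (-0.29) and EIF2B5 at 74.1, 69.6 and 72.7 against 82.8, 82.8 and 78.6 CPM (-0.17). In these 4 genes the GNF-7 and vehicle libraries did not overlap at 24 h, while EIF2B4 overlapped (-0.023, 95% interval -0.14 to 0.10). The call of EIF2B5 at 24 h was lost in the fit of only the well-expressed genes (-0.0742, adjusted p 0.117).

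At 6 h the eIF2B changes were small, from -0.16 in EIF2B4 to -0.10 in EIF2B2, with calls in EIF2B1, EIF2B4 and EIF2B5. The calls were lost when 1 library was left out: for EIF2B1 without GNF-7 6 h replicate 2 or senescent vehicle 6 h replicate 1 (log2 fold change -0.11 in both), for EIF2B4 in 4 of 15 such fits and for EIF2B5 in 3. None of the 3 was called in the fit of only the well-expressed genes (-0.0753, -0.10 and -0.0744 for EIF2B1, EIF2B4 and EIF2B5, adjusted p 0.115 to 0.136). The count ratio of EIF2S2 to EIF2B5 was taken in each library, a pair also chosen after the values were seen. It averaged 1.64 ± 0.0117 (SD, n = 3) in cycling cells, 1.34 ± 0.0652 and 1.46 ± 0.0232 in senescent vehicle cells at 6 h and 24 h, and 2.24 ± 0.116 and 2.60 ± 0.0944 with GNF-7. The GNF-7 libraries were above all others (exact permutation p = 0.1 against vehicle at each time).

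Factors of start codon selection split between rises and falls. EIF1, which keeps the scanning ribosome open until the start codon is found (ENSG00000173812, chromosome 17, 41688885 to 41692668, plus strand), was at 574, 572 and 556 CPM in cycling and 392, 413 and 394 in senescent vehicle cells (-0.50). GNF-7 cells held 503, 496 and 506 CPM at 6 h (log2 fold change 0.33, SE 0.034, edgeR adjusted p 1.89e-12). At 24 h they held 707, 674 and 704 against 416, 414 and 419 in vehicle (log2 fold change 0.74, SE 0.034, edgeR adjusted p 2.09e-28). All GNF-7 libraries at 24 h were above all cycling libraries, at 1.23 times the cycling mean.

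Its paralogue EIF1B rose more than EIF1 with GNF-7 at each time, and its fall in senescence (-0.44) was near that of EIF1. The libraries held 37.0, 39.9 and 39.5 CPM in cycling cells, 26.6, 29.4 and 29.7 in senescent vehicle and 45.9, 42.9 and 44.2 in GNF-7 cells at 6 h (log2 fold change 0.63, SE 0.059, edgeR adjusted p 5.69e-14). At 24 h vehicle cells were at 31.8, 31.6 and 29.8 and GNF-7 cells at 70.9, 62.7 and 66.1 CPM (log2 fold change 1.10, SE 0.058, edgeR adjusted p 2.13e-25). The mean at 24 h was 1.71 times the cycling mean, again with no overlap. The effects at 24 h exceeded those at 6 h by 0.41 in EIF1 (adjusted p 1.32e-10) and 0.46 in EIF1B (adjusted p 6.85e-06).

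EIF5, the GTPase activator that makes eIF2 hydrolyse its GTP at the start codon and that opposes EIF1 there, also rose. It went from 338, 346 and 354 CPM in cycling to 200.4, 209.9 and 209.7 in senescent vehicle cells (-0.74), and was at 339.5, 325 and 329.5 with GNF-7 at 6 h (log2 fold change 0.68, SE 0.036, edgeR adjusted p 1.16e-24). At 24 h it was 293, 278 and 278 against 206, 204 and 208 CPM (log2 fold change 0.46, SE 0.036, edgeR adjusted p 1.56e-17). Unlike EIF1, its effect was smaller at 24 h than at 6 h, with a difference of -0.22 (adjusted p 0.000416).

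**Figure D4:**
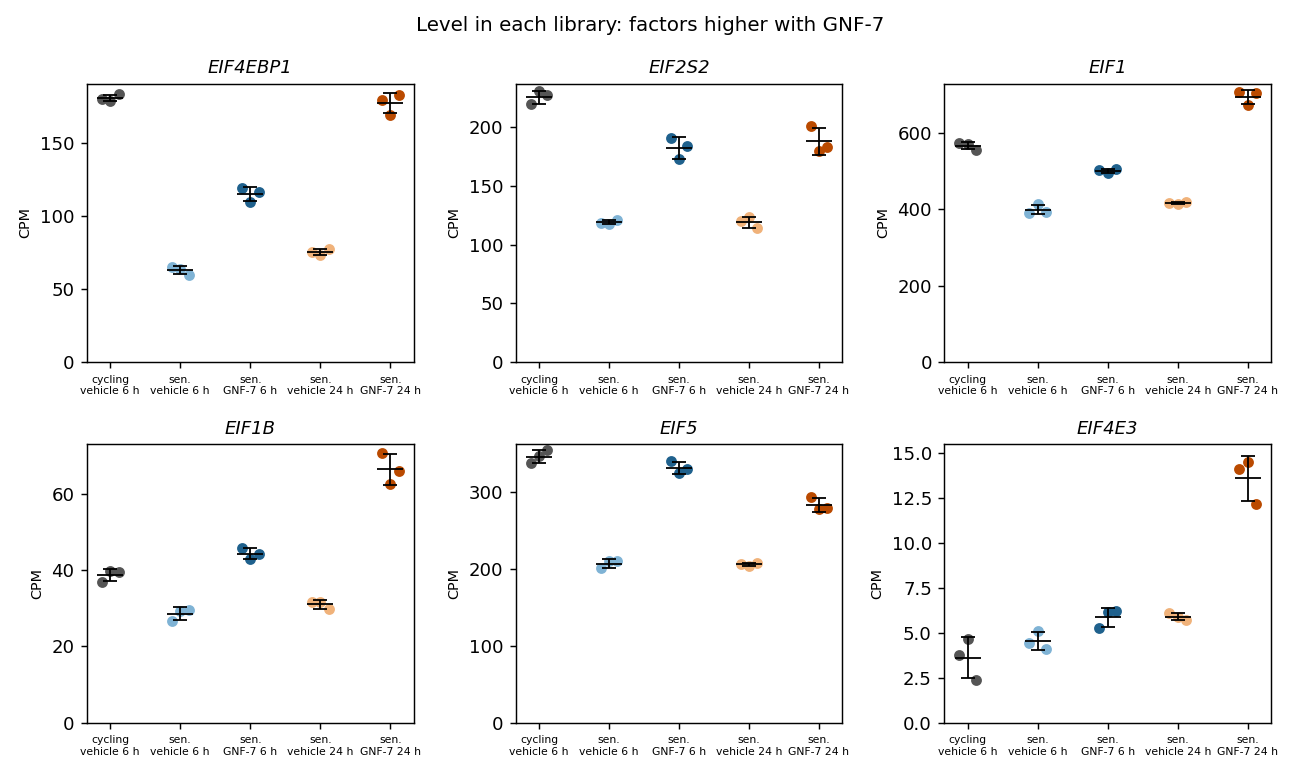
CPM in each library (y axis, linear, from 0) of EIF4EBP1, EIF2S2, EIF1, EIF1B, EIF5 and EIF4E3, which were higher with GNF-7 at both times. Points are libraries, the bar is the mean and the whiskers the SD of 3 libraries. EIF1B averaged 66.5 CPM with GNF-7 at 24 h and 38.8 in cycling cells, and EIF5 was highest with GNF-7 at 6 h among the senescent groups.

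Of the other genes of this step, EIF2D was called higher with GNF-7 and EIF1AX, EIF5B, EIF6 and EIF1AD lower, each at 1 time or both. EIF1AX, the X-linked gene of eIF1A, which works beside eIF1 on the small subunit, dropped from 104, 112 and 113 CPM in cycling to 50.4, 52.1 and 56.4 in senescent vehicle cells (log2 fold change -1.05, SE 0.049, edgeR adjusted p 2.36e-28). It was at 36.7, 37.4 and 37.8 CPM with GNF-7 at 24 h against 48.5, 47.1 and 46.3 (-0.35, adjusted p 6.8e-08). Its fall at 6 h (-0.18) lost its call without senescent vehicle 6 h replicate 3 (-0.14, adjusted p 0.0547). EIF5B, the GTPase of subunit joining, was lower with GNF-7, with log2 fold changes of -0.19 at 6 h and -0.51 at 24 h. EIF6, which keeps the large subunit from joining early, was at 116, 128 and 127 CPM against 175, 173 and 171 in vehicle at 24 h (log2 fold change -0.48, SE 0.041, edgeR adjusted p 4.49e-16). EIF2D, which can deliver tRNA without GTP, was higher at 24 h, at 72.2, 70.2 and 72.0 against 61.0, 62.5 and 60.9 CPM (0.22, adjusted p 6.64e-05). At 6 h it was called only in the fit of the well-expressed genes (0.15, adjusted p 0.00627). EIF1AD, whose protein resembles eIF1A, was lower at 6 h, at 19.1, 23.3 and 22.7 against 29.6, 27.9 and 28.8 CPM (-0.41, adjusted p 7.87e-06) and not called at 24 h, at 23.9, 23.8 and 23.7 against 27.1, 25.2 and 22.4 CPM (-0.071). The difference of 0.34 between the times was called (adjusted p 0.0104), but not without GNF-7 6 h replicate 1 or senescent vehicle 24 h replicate 3 (adjusted p 0.0634 to 0.0723).

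The eIF3 complex, the large scaffold between the small subunit and eIF4G, was lower in senescence in nearly all of its genes. Of all genes tested 34.4% were called lower there, and of the well-expressed genes 50.9%. Of 14 subunit genes, 13 were called lower and none higher, with a median log2 fold change of -0.55. EIF3J, a loosely bound subunit, fell most, from 145, 148 and 144 to 70.5, 68.7 and 70.0 CPM (log2 fold change -1.06, SE 0.048, edgeR adjusted p 3.18e-29). EIF3A, the largest core subunit, was at 514, 552 and 535 CPM in cycling and 345, 338 and 348 in senescent vehicle cells (-0.64). The smallest falls were those of EIF3K (-0.15) and EIF3G (-0.15), an accessory subunit and the RNA-binding subunit. Neither of the 2 was called with library totals (-0.0193 and -0.0223) or in the fit of only the well-expressed genes. The exception, EIF3CL, is a near-identical copy of EIF3C with 3 to 17 counts in a library, and EIF3C itself had only 266 to 548, so the values of both are uncertain.

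GNF-7 left much of eIF3 near its vehicle level. Of all genes tested, 17.9% were called higher and 21.4% lower with GNF-7 at 6 h. At 6 h, 1 subunit was called higher (EIF3C, an uncertain value) and 2 lower, EIF3B (-0.16) and EIF3I (-0.087), partners in a peripheral module of the complex. The call of EIF3I at 6 h was lost with library totals (-0.0747), RLE factors (-0.0782) and in the fit of only the well-expressed genes (-0.0343). At 24 h, 2 were higher and 6 lower, beside 29.3% and 29.7% of all genes. EIF3B then had the largest called fall of the complex, to 189.7, 181 and 198 CPM from 270.4, 263 and 269.8 (log2 fold change -0.50, SE 0.036, edgeR adjusted p 8.32e-19). EIF3I (-0.28), EIF3J (-0.29), EIF3L (-0.22), EIF3A (-0.21) and EIF3D (-0.12) were lower by less, and EIF3D was not called in the fit of only the well-expressed genes (-0.021, adjusted p 0.592). EIF3F was called higher by 0.10 with overlapping libraries, but not without a filter (0.0791, adjusted p 0.185). EIF3E, EIF3G, EIF3H, EIF3K and EIF3M were not called at 24 h, with log2 fold changes from -0.085 (EIF3K) to 0.059 (EIF3H), nor was EIF3CL. EIF3H was called higher at 24 h with library totals (0.0865, adjusted p 0.0377) and in the fit of only the well-expressed genes (0.16, adjusted p 2.13e-05), and EIF3K lower with RLE factors (-0.0908, adjusted p 0.0449). EIF3L shares 41.1% of its exonic bases with another gene on its strand.

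In senescence 7 of 8 tested elongation factor genes were lower and 1 higher, and with GNF-7 at 24 h 2 were higher, 2 lower and 4 not called. Of all genes tested, 34.4% were lower and 35.6% higher in senescence, and 29.7% lower and 29.3% higher with GNF-7 at 24 h. EEF1A1 and EEF2 were the 2 most abundant members by CPM per kb of exon in cycling cells, at 794 ± 25.8 and 884 ± 4.86, and EEF1A1 and EEF2 together made up 36.8% of the members' CPM. EEF1A1, which carries aminoacyl-tRNA to the ribosome, was at 4578, 4709 and 4884 CPM in cycling and 4017, 4099 and 4051 in senescent vehicle cells (log2 fold change -0.22, SE 0.031, edgeR adjusted p 5.89e-09). With GNF-7 its log2 fold changes were 0.0028 (95% interval -0.058 to 0.064) at 6 h and 0.013 (95% interval -0.047 to 0.074) at 24 h, neither called. The fit of only the well-expressed genes called it higher at 24 h (0.11, adjusted p 0.000387). The many processed copies of EEF1A1 in the genome could take some of its reads. EEF2, the translocase, rose with GNF-7, from 3304, 3298 and 3253 to 3577, 3425 and 3609 CPM at 6 h (0.11, adjusted p 0.00408) and from 3269, 3240 and 3298 to 4051, 3887 and 4105 at 24 h (log2 fold change 0.30, SE 0.031, edgeR adjusted p 1.04e-12). Its small fall in senescence (-0.12) became 0.0349 in the fit of only the well-expressed genes and 0.0165 with library totals, neither called. Its rise at 6 h was not called without a filter on low counts (0.0867, adjusted p 0.0505).

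EEF1A2, the eEF1A paralogue typical of muscle and neurons, was higher in senescence, at 417, 427 and 417 against 366, 352 and 348 CPM (log2 fold change 0.24, SE 0.036, edgeR adjusted p 2.47e-08), and was not called with GNF-7 (-0.028 at 6 h, -0.0086 at 24 h), except at 24 h in the fit of only the well-expressed genes (0.0922, adjusted p 0.0146). The exchange factor genes of eEF1A differed: EEF1B2 was lower in senescence (-0.44) and not called with GNF-7, with the same exception (0.098, adjusted p 0.0136), while EEF1D was lower in senescence (-0.19) and higher with GNF-7 at 24 h (0.17, adjusted p 7.61e-05). EEF1G is listed at 0 in 14 libraries and at 1 count in the other, and 99.9% of its exonic bases are shared with another gene on its strand that had 21 to 61 counts. This is no measure of EEF1G expression.

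EIF5A, the hypusine-bearing factor that helps at stalling sites and at termination (ENSG00000132507, chromosome 17, 7306999 to 7312463, plus strand), had the largest called fall with GNF-7 at 24 h after that of its near-identical copy EIF5AL1. Cycling libraries held 1154, 1151 and 1159 CPM and senescent vehicle libraries 585, 569.8 and 577 (log2 fold change -1.0, SE 0.033, edgeR adjusted p 8.11e-36). GNF-7 libraries were at 488, 494 and 500.4 CPM at 6 h (-0.23, adjusted p 8.31e-08). At 24 h vehicle was at 567, 583 and 588 and GNF-7 at 335, 324 and 349 CPM (log2 fold change -0.78, SE 0.034, edgeR adjusted p 1.1e-29). The effect at 24 h minus that at 6 h was -0.56 (adjusted p 2.33e-15), the largest called difference between the times among the members in that direction.

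The paralogue EIF5A2 was called lower at 6 h but not at 24 h. It was at 32.5, 33.5 and 33.4 CPM in vehicle and 25.3, 26.0 and 23.3 with GNF-7 at 6 h (log2 fold change -0.41, SE 0.062, edgeR adjusted p 1.21e-07), but at 34.0, 34.6 and 33.2 and 35.5, 33.8 and 37.1 at 24 h (0.063, 95% interval -0.055 to 0.18, not called, though called higher in the fit of only the well-expressed genes at 0.16, adjusted p 0.0122). The difference of 0.47 between the times was called (adjusted p 9.73e-06). The count ratio of EIF5A2 to EIF5A, a pair chosen after the values were seen, was 0.0360, 0.0386 and 0.0371 in cycling cells. At 6 h it was 0.0555, 0.0587 and 0.0579 in vehicle and 0.0519, 0.0527 and 0.0466 with GNF-7, which is 0.879 times vehicle (exact permutation p = 0.1). At 24 h it was 0.0600, 0.0593 and 0.0565 in vehicle and 0.106, 0.104 and 0.106 with GNF-7, which is 1.80 times vehicle (exact permutation p = 0.1). EIF5AL1, a near-identical intronless copy of EIF5A, was lower in senescence, at 10.4, 7.10 and 8.80 against 17.0, 16.2 and 18.1 CPM (-0.97), and with GNF-7 at 24 h, at 4.04, 5.06 and 3.98 against 7.81, 7.82 and 7.19 (-0.80), and reads of EIF5A could be counted there.

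The genes of enzymes that modify elongation factors were lower or not called in senescence, 4 and 2 of 6, beside 34.4% of all genes called lower. EEF2K, the kinase that inhibits eEF2, was at 70.3, 64.5 and 63.8 CPM in cycling cells, 56.1, 53.0 and 49.3 in senescent vehicle and 47.7, 41.2 and 44.4 in GNF-7 cells at 24 h (log2 fold change -0.25, SE 0.055, edgeR adjusted p 7.49e-05). It was not called at 6 h (0.043), and the difference between the times was -0.29 (adjusted p 0.00185). Thus EEF2 rose while the gene of its inhibitory kinase fell at 24 h. Of the methyltransferases, EEF2KMT fell in senescence from 31.7 ± 1.24 to 17.8 ± 1.68 CPM (-0.84) and with GNF-7 at 24 h (-0.31). EEF1AKMT1 was lower in both (-0.62 and -0.62), EEF1AKMT2 in senescence (-0.81), and EEF1AKMT3 was higher with GNF-7 at 24 h (0.27, adjusted p 0.0345), but not called without a filter (0.25, adjusted p 0.093). EEF1AKMT4 had no call, and its readthrough gene with ECE2 had no count. EEF2KMT shares 29.3% of its exonic bases with ALG1 on the other strand, and EEF1AKMT3 15.95% with METTL1.

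**Figure D5:**
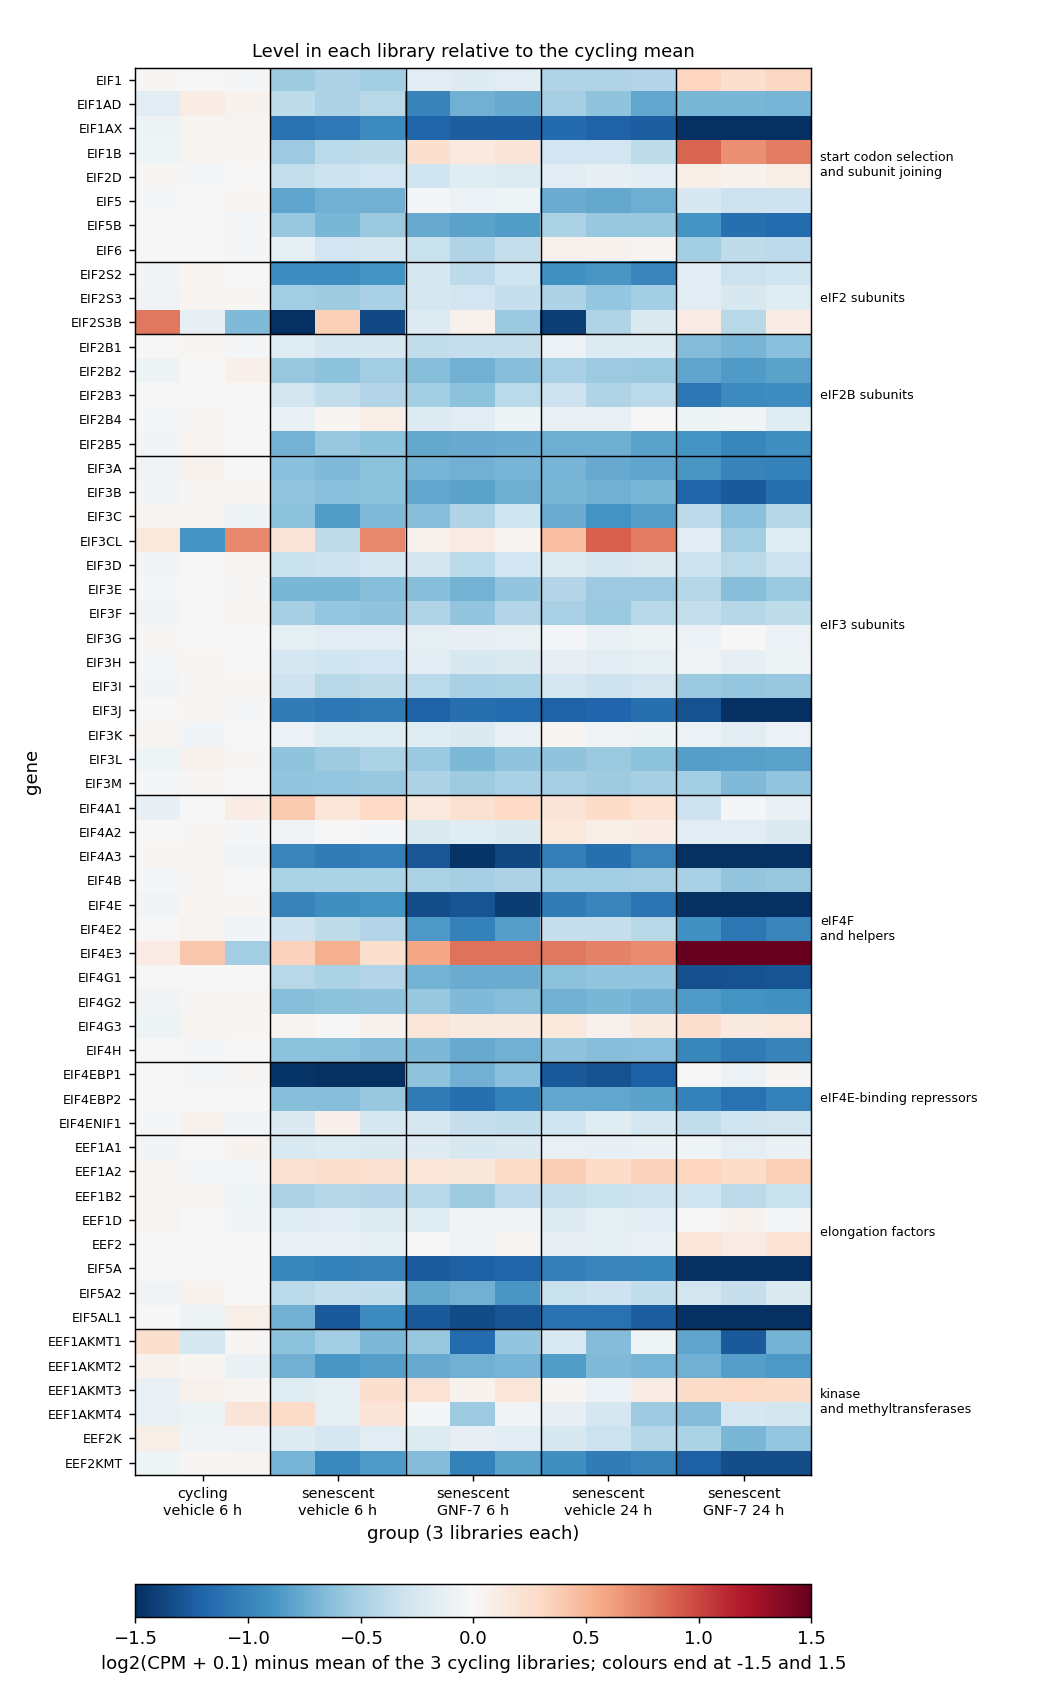
Level of each tested factor (rows, by role, without EIF1AY) in each of the 15 libraries (columns), as log2(CPM + 0.1) minus the mean of the 3 cycling libraries. Blue is lower and red is higher than in cycling cells, and colours end at a difference of 1.5. EIF4EBP1 is dark blue in senescent vehicle cells and near white with GNF-7 at 24 h, while EIF4E, EIF4A3, EIF5A and EIF1AX darken there.

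The 24 h GNF-7 libraries were set beside the cycling libraries as values, without a test, since treatment, time and senescence all differ between them. Of the 59 tested members, 45 had all 3 GNF-7 libraries below all 3 cycling libraries, 8 had them above, and 6 overlapped. Of all genes tested 37.9% were below, 43.0% above and 19.1% overlapped. EIF4EBP1 and EEF1D were among those that overlapped, at 0.981 and 1.00 times the cycling mean. EIF1, EIF1B, EIF2D, EEF2, EEF1A2, EEF1AKMT3, EIF4G3 and EIF4E3 were above. EIF2S2 and EIF5 stood below, at 0.832 and 0.819 times the cycling mean, and EIF5A, EIF4E, EIF4A3 and EIF1AX at 0.291, 0.292, 0.326 and 0.340.

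Senescence and the 24 h effect of GNF-7 share no library, so their calls can be crossed. Of the 48 members lower in senescence, 25 were also lower with GNF-7 at 24 h, 11 were higher and 12 were not called. The 25 were among 27 lower with GNF-7, and the 11 among 13 higher with it. The shares of the 48 were 52.1, 22.9 and 25.0%. Of the 6384 genes lower in senescence, 51.9% were lower with GNF-7 at 24 h, 18.5% higher and 29.7% not called, so the members' shares were near those of all genes. The 11 were EEF1D, EEF2, EIF1, EIF1B, EIF2D, EIF2S2, EIF2S3, EIF3C, EIF3F, EIF4EBP1 and EIF5. The early and late effects of GNF-7 also share no library. Of 11 members higher at 6 h and 13 at 24 h, 10 were higher at both times. Of 21 lower at 6 h and 27 at 24 h, 16 were lower at both, and 0 members were called in opposite directions. Of all genes called higher at 6 h 72.8% were higher at 24 h and 6.18% lower, and of those called lower at 6 h 80.9% were lower at 24 h and 2.87% higher. EIF4G3 was the member higher at 6 h without a call at 24 h.

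Whether GNF-7 acted differently at 24 h than at 6 h was tested directly. A difference was called in 30 of 59 members, 8 higher and 22 lower, beside 30.8% of all genes, 12.8% higher and 18% lower, and beside 43.2% of the well-expressed genes. The fit of only the well-expressed genes gave 10 higher and 14 lower of 55. The 3 largest called differences in each direction were those of EIF4E3 (0.84), EIF5A2 (0.47) and EIF1B (0.46), and of EIF5A (-0.56), EIF2B3 (-0.46) and EIF5AL1 (-0.46). The call of EIF5AL1 was lost in 8 of 15 fits that left out 1 library. In vehicle alone, senescent cells at 24 h against 6 h gave 16 calls of 59, 9 higher and 7 lower, beside 18.5% of all genes, 9.26% higher and 9.29% lower. Of the well-expressed genes 28.4% were called, near the 27.1% of the members. Of the called members EIF6 (0.28) and EIF4EBP1 (0.26) rose most, from 142 ± 7.44 to 173 ± 1.87 and from 62.9 ± 2.7 to 75.2 ± 2.27 CPM. This count rests on single libraries: it was 9 without senescent vehicle 24 h replicate 3 and 9 without senescent vehicle 6 h replicate 3, with 7 higher and 2 lower in both cases. The 7 falls were 3 without senescent vehicle 24 h replicate 2 and 4 without senescent vehicle 6 h replicate 1. Scaling by library totals gave 2 higher and 24 lower.

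The start sites of the members were compared as well, since many mRNAs of the translation machinery begin with a 5′ terminal oligopyrimidine tract, a C followed by a run of C and T, through which LARP1 and mTORC1 control their translation and stability. Starts with a C and at least 4 further C or T were in 12 of the 67 member windows, 17.9%, and in 4.07% of all windows. The 12 genes were EEF1A1, EEF1B2, EEF2, EIF2D, EIF2S3, EIF2S3B, EIF3D, EIF3F, EIF3K, EIF3M, EIF4A2 and EIF4B. Stretches from 10 bases before the start to 15 bases from it are shown for 6 of these genes, with the tract in capitals, and then for 3 members whose starts lack it, EIF5, EIF1B and EIF4E. EEF1A1 lies at chr6:73521018-73521042, minus strand, EEF2 at chr19:3985449-3985473, minus strand, EIF4B at chr12:53006446-53006470, plus strand, EIF3F at chr11:7987327-7987351, plus strand, EIF3D at chr22:36529152-36529176, minus strand, and EIF2S3 at chrX:24054946-24054970, plus strand. The others lie at chr14:103334227-103334251, plus strand (EIF5), chr3:40309697-40309721, plus strand (EIF1B) and chr4:98929119-98929143, minus strand (EIF4E).
EEF1A1: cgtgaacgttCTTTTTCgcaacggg
EEF2: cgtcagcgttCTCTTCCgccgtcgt
EIF4B: tcatccgggtCTTTTgcgttctctt
EIF3F: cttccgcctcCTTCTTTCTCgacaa
EIF3D: cgcatgtttcCTCTTTTCCTggttt
EIF2S3: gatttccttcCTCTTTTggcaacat
EIF5: ggcgttgttcagtcagagcgagaac
EIF1B: cattttgtgcgagaagccgcagcgc
EIF4E: tggagcggttgtgcgatcagatcga
Among the 12 genes with the tract, 3 were called with GNF-7 at 6 h (2 higher, 1 lower) and 6 at 24 h (4 higher, 2 lower). Their median absolute log2 fold change was 0.08 at 6 h and 0.11 at 24 h. Among the 34 tested members with a window and no tract, 26 were called at 6 h and 26 at 24 h, and the median absolute changes were 0.20 and 0.36. In senescence the medians of the signed changes were -0.38 and -0.54, with 10 of 12 and 28 of 34 called lower, beside 34.4% of all genes. EIF2S3B, among the 12, had only 2 to 20 counts in a library. Of all genes tested 39.3% were called at 6 h and 58.9% at 24 h, and of the well-expressed genes 53.5% and 72.7%. In the fit of only the well-expressed genes EIF2D, EIF3F and EIF3M were also higher at 6 h. At 24 h EEF1A1, EEF1B2 and EIF4B were also higher there, and EIF3D lost its call. Without the tract, EIF4H lost its call at 6 h and EIF5A2 was called higher at 24 h. The counts and medians describe 12 and 34 genes, and their difference was not tested.

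The C/EBP-ATF element TGATGNAA, the kind of site that ATF4 reads in its target genes, was in 1 of the 67 member windows and in 3.62% of all windows, on either strand. The window was that of the third start listed for EIF4E3, with the match 13 bases before the start (chr3:71729119-71729151, minus strand), shown with the match in capitals because EIF4E3 had one of the largest rises with GNF-7.
EIF4E3: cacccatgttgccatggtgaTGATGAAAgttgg
EIF1, EIF1B and EIF5 have windows without these letters, which says only that they are not in these 300 bases. EIF4EBP1, which had the largest called rise with GNF-7, had no window in hand, so its start was not searched.

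Other genes of translation, from lists of 58 genes that are not members, were read with the same fit. In senescence 11 were higher and 37 lower, with a median of -0.32. With GNF-7, 12 were higher and 16 lower at 6 h, and 19 higher and 23 lower at 24 h, with medians of 0.0010 and 0.013. Among the 11234 well-expressed genes, 50.9% were called lower in senescence. With GNF-7, 53.5% of those genes were called at 6 h and 72.7% at 24 h. The share of the 58 called with GNF-7 was near these, so the counts do not set the lists apart. Whether any single list differed from genes of like abundance was not tested. The largest called rises with GNF-7 in these lists were those of LARP6, MKNK2 and ZNF598. LARP6, an RNA-binding protein of collagen mRNAs, rose by 0.88 at 6 h and 0.96 at 24 h on the log2 scale. MKNK2, a kinase of eIF4E, rose by 0.56 and 0.82, and ZNF598, the sensor of collided ribosomes, by 0.57 and 0.79. Of the 8 genes of termination, recycling and rescue none was higher and 5 were lower at 24 h, with ABCE1, which splits ribosomes, at -0.75 and GSPT1, the GTPase of termination, at -0.52. In the mTORC1 list, MTOR was lower (-0.32 at 6 h and -0.44 at 24 h) and MLST8 higher (0.34 and 0.39), and 4 of 9 were higher and 4 lower at 24 h. LARP1 was higher at 6 h (0.14) and not called at 24 h (0.075).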

How the data were processed

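Poly-A mRNA libraries were sequenced and, per the submitters' processing notes, bcl2fastq 2.20.0.422, STAR 2.7.9a, featureCounts 1.5.1 and GRCh38 were used. The annotation release, the strand setting and the treatment of multi-mapping and overlapping reads are not given in the sources used here. The authors deposited raw counts per Ensembl gene, and no other unit was used. Of 60673 lines in the table, 3 were left out, 1 a broken entry, and the others were matched to GENCODE 29 for symbols, exon lengths and overlaps and to RefSeq for start windows. Reads were not reprocessed.

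Counts were fitted with edgeR 4.0.16 (R 4.3.3; TMM scaling, filterByExpr, robust quasi-likelihood test) over all 15 libraries with a term per group, and p-values were adjusted by Benjamini-Hochberg over 18563 genes. SEs come from the fold change and the F statistic, 95% intervals from the SE, and the biological coefficient of variation was 4.64%. On simulated counts with 200 genes changed 2-fold for the 6 h GNF-7 comparison (18563 genes), 173 were recovered with 7 false calls. Every pair of libraries within a group differed beyond sampling noise. Alternatives were RLE factors, library totals, scaling without mitochondrial genes, 2 filters, DESeq2 1.42.0, limma 3.58.1, a fit of only the groups compared, the replicate number as a term, and each library left out in turn.

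The members, the gene lists and the named genes were chosen with earlier results of these data known. By rule, the named genes, with values by library in the comparisons described, were 27 listed members and the 3 called members that rose and fell most in each comparison, with a mean of at least 5 CPM. EIF4A3 and EIF3B were added after their values were seen. EIF1AY was counted, but its values are not printed. Protein sequences were not used here.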

Additional observations from a re-analysis of the deposited data

Results flagged for a closer look

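The effect of GNF-7 at 24 h differed from that at 6 h, by edgeR's quasi-likelihood test of the difference itself, in 22 of the 33 tested members that the rule for named genes gave. Some of these were named for this difference, and of all 59 members tested 30 were called, beside 30.8% of all genes. Positive values mean a higher effect at 24 h on the log2 scale. They were 0.84 for EIF4E3, 0.47 for EIF5A2, 0.46 for EIF1B, 0.41 for EIF1, 0.37 for EIF4EBP1, 0.34 for EIF1AD, 0.19 for EEF2 and 0.19 for EIF4EBP2. For EIF4E3, EIF1B, EIF1, EIF4EBP1 and EEF2 these were rises that were larger at 24 h, and for EIF5A2, EIF1AD and EIF4EBP2 falls at 6 h that were smaller or not called at 24 h. In vehicle EIF4EBP2 and EIF1AD were themselves called lower at 24 h than at 6 h. EIF4EBP2 went from 76.4 to 67.8 CPM in vehicle and from 55.9 to 56.5 with GNF-7. EIF1AD went from 28.8 to 24.9 CPM in vehicle and from 21.7 to 23.8 with GNF-7.

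Negative values were -0.56 for EIF5A, -0.46 for EIF2B3, -0.46 for EIF5AL1, -0.42 for EIF4G1, -0.38 for EIF2B1, -0.33 for EIF6, -0.32 for EIF4E, -0.29 for EEF2K, -0.22 for EIF5, -0.19 for EIF2B2, -0.18 for EIF3J, -0.17 for EIF4G2, -0.14 for EIF3A and -0.12 for EIF4A2. Of these genes only EIF5 was higher with GNF-7, and its rise was smaller at 24 h. The other 13 were lower at 24 h. The test was lost on leaving out 1 library in 11 of 15 fits for EIF2B2, 8 for EIF5AL1, 7 for EIF3J, 6 for EIF4A2, 5 for EIF3A, 5 for EIF4EBP2 and 2 for EIF1AD. The mitochondrial share of counts was also higher with GNF-7 at each time. With mitochondrial genes left out of the scaling, 8 members had a called positive difference and 23 a negative one.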

How the results depend on the processing

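No member called in a comparison was called in the opposite direction under any alternative run. Leaving out 1 library at a time gave 49 to 52 calls in senescence, 24 to 32 with GNF-7 at 6 h, 38 to 41 at 24 h, 22 to 30 for the difference of the effects and 9 to 18 between the times in vehicle. Library totals gave 26 calls between the times in vehicle. They shifted the median of all genes by 0.13 in senescence and -0.11 between the times, and the filter at 5 CPM shifted it by 0.15 in senescence and 0.10 with GNF-7 at 24 h. With library totals the change between the times in vehicle turned to -0.0033 for EEF1A1, -0.11 for EIF2S3 and -0.11 for EIF5A, and in senescence to 0.0165 for EEF2 and 0.11 for EIF4A2. With the filter at 5 CPM, senescence gave 0.0349 for EEF2 and 0.13 for EIF4A2, and GNF-7 at 24 h gave 0.0922 for EEF1A2. The cause was not tested.

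Deviations from the group mean correlated weakly between same-numbered libraries (30 pairs, r from -0.0369 to 0.0579) and others (60 pairs, -0.0686 to 0.0395). Between senescent groups, though, replicate 2 libraries correlated positively with one another and negatively with replicate 1 libraries. The mitochondrial share was lowest in replicate 1 and highest in replicate 2 of each senescent group. The labels state no pairing, and the main fit had no term for the number. The replicate block gave 51, 33, 42, 30 and 18 calls in senescence, with GNF-7 at 6 h and 24 h, for their difference and between the times, and kept all calls made without it. Depth limited EIF2S3B, EIF3CL and EIF4EBP3, with at most 20 counts in a library. RNA levels do not give protein or translation.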

Other observations

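The paralogues EIF1B and EIF1 rose together with GNF-7 but not equally. The ratio of EIF1B to EIF1 counts was 1.24 times that of vehicle at 6 h and 1.28 times at 24 h, with no overlap of libraries (two-sided exact permutation p = 0.1, the smallest 3 against 3 can give, and 0.115 adjusted over 15 ratios). In senescence the ratio was 1.04 times that of cycling cells (exact permutation p = 0.4). The pair was chosen after the values were seen.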
